A study of Homo sapiens with 8 samples.

Results

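FOS, FOSB, FOSL1, FOSL2, JUN, JUNB, JUND, ATF3, EGR1 and IER3 are genes of the AP-1 transcription factor and of the immediate early response. They were chosen by name, make up 10 of the 57992 genes listed in the RNAseq counts, and were measured in RKO cells, an established human colon carcinoma line. The cells received a control siRNA (4 samples) or an siRNA against A20 (4 samples), and all 8 samples were then stimulated with recombinant human wnt3a at 50 ng/mL for 24 hours. Cells without wnt3a were not analysed here, and both groups compared were stimulated. The labels name 1 cell line only, with no genetic change in either group. A20 is the ubiquitin-editing protein encoded by TNFAIP3, and the study asked which transcripts it controls after wnt3a.

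Total counts per sample ranged from 21226451 to 34194273, at which 3 reads correspond to 0.0875 to 0.141 CPM (read counts relative to library size, after scaling by the TMM factors of edgeR). Such floors cover counting error only. TNFAIP3 ranged over 4.92 to 5.83 CPM in control samples but 3.01 to 3.47 CPM after A20 siRNA, and the groups did not overlap (log2 fold change -0.71, SE 0.10, adjusted p = 0.00258, the quasi-likelihood test of edgeR, adjusted by Benjamini-Hochberg over all tested genes). A20 transcripts were therefore lowered but still present. Of 8 epithelial and colon markers, EPCAM, KRT8, KRT18 and CDX2 were tested, whereas CDH1, KRT19 and KRT20 had no read and VIL1 had at most 1 read in a sample. The epithelial markers summed to 140.4 to 151.6 CPM with control siRNA and 138.1 to 146.3 CPM with A20 siRNA, and the 9 markers of leukocytes, fibroblasts and endothelium to at most 0.233 and 0.179 CPM. Neither the labels nor the methods say whether the replicates were separate experiments, so the errors given here may cover only the spread between parallel cultures.

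AP-1 is a dimer of basic leucine zipper proteins. JUN family proteins can pair with each other or with FOS family proteins, whereas FOS family proteins need a JUN partner to bind DNA. FOS, JUN and EGR1 are classical immediate early genes, which growth factors, serum and stress switch on within minutes through MAP kinases, before any new protein is made, and which usually fall again within hours. FOSL1 and FOSL2 follow later and last longer, and JUND is present in resting cells. In colon carcinoma cells AP-1 is known as an output of the RAS and MAP kinase pathway, and JUN also as a target of wnt-beta-catenin signaling.

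The promoter windows of 4 genes are shown because they carry the elements for which these genes are known, or belong to the genes whose groups did not overlap (JUNB and JUND, below). Each window holds 250 bases before and 50 bases after the start site, on the gene's own strand, from RefSeq on GRCh38.p14. They are EGR1 (chr5:138465229-138465528, plus strand), JUN (chr1:58783998-58784297, minus strand), JUNB (chr19:12791236-12791535, plus strand) and JUND (chr19:18281573-18281872, minus strand). Capitals mark, on either strand, the CArG box, to which serum response factor binds, the CRE TGACGTCA or its core TGACG, and TGACATCA, the variant known from the JUN promoter.
EGR1: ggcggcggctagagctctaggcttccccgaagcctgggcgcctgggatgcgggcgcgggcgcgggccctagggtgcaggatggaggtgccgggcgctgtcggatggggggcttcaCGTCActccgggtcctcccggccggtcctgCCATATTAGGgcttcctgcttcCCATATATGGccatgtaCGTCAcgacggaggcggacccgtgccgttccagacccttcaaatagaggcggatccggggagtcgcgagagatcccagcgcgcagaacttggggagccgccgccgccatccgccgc
JUN: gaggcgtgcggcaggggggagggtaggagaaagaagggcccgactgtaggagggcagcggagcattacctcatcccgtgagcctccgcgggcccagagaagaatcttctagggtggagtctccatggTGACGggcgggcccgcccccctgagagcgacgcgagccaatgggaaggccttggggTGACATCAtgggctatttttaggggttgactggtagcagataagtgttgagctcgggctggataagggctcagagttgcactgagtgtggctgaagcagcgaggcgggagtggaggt
JUNB: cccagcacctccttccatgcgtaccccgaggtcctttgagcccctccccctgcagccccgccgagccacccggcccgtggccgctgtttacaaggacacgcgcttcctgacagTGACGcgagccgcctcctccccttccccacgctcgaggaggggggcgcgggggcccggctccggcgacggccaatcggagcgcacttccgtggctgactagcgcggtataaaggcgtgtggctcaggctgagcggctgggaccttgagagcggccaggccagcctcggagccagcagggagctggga
JUND: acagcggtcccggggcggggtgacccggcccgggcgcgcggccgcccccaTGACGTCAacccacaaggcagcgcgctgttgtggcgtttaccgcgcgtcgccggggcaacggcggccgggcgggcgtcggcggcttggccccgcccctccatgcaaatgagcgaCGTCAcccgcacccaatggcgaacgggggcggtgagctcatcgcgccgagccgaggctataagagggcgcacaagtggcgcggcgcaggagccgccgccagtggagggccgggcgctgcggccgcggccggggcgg
Positions are counted from the start site as 1. EGR1 held CArG boxes at -105 to -96 (CCATATTAGG) and at -83 to -74 (CCATATATGG), and 454 of all 35116 windows (1.29%) held at least one. JUN held TGACATCA at -67 to -60, a match found in 2.61% of all windows, and ATF3 held it too. JUND held the full CRE at -200 to -193, found in 1.85% of windows. The core TGACG, which is part of the full CRE, was in 7 of the 9 windows of these genes and in 24.6% of all windows. The AP-1 site TGACTCA was found in FOSL2, at 5 to 11 after the start, and in 4.95% of all windows. No window of these genes held a kB motif (11.3% of all windows), the TCF/LEF motif ATCAAAG (2.62%) or the EGR motif GCGTGGGCG (0.795%). GGGCGG was in 6 of the 9 windows (45% of all), CCAAT in 4 (34.6%) and TATAAA in 4 (11.5%). Both strands were searched. Windows were matched for 8 of the 10 genes, ATF3 having 2, and none was matched for FOSL1 and IER3. The matches describe letters only.

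All 10 genes were expressed above the low-count filter, but their levels spanned a wide range. Counts were divided by the gene's exonic length for levels between genes (CPM per kb, over the union of all annotated exons). JUN was the most abundant at 199.3 ± 2.22 CPM per kb with control siRNA (SD, n = 4), and its level in CPM lay at the 98.9th percentile of the 13412 tested genes. FOSL1 followed at 160.2 ± 3.25 and EGR1 at 46.9 ± 0.804 CPM per kb (SD, n = 4 each). JUND (17.9 ± 0.486) and JUNB (17.9 ± 0.398) were at the same level within their spread, and JUND was the higher gene in 5 of 8 samples. FOSB reached 8.14 ± 0.314, FOS 1.93 ± 0.115 and FOSL2 1.55 ± 0.0926 CPM per kb. IER3 (0.628 ± 0.115) and ATF3 (0.446 ± 0.0718) were the lowest, and their ranges over the 8 samples overlapped, although IER3 was the higher in 8 of 8 samples. In CPM with control siRNA, not divided by length, ATF3 was the higher (1.79 against 0.847). Their order thus rests on the exonic lengths used (1350 bases for IER3 and 3998 for ATF3). The same holds for FOS above FOSL2, with 6.14 and 11.1 CPM with control siRNA over 3186 and 7162 bases. It also holds for JUNB above FOSB, with 32.7 and 45.2 CPM with control siRNA over 1830 and 5553 bases. Other transcript lengths were not tried for any gene. In CPM per kb, all neighbours except JUND and JUNB, and IER3 and ATF3, were apart in every sample. The order was the same with A20 siRNA. The ratio of JUN to the next gene FOSL1 was 1.24 in both groups, and FOSB was 4.22 times FOS with control siRNA and 3.95 times with A20 siRNA.

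**Figure D1:**
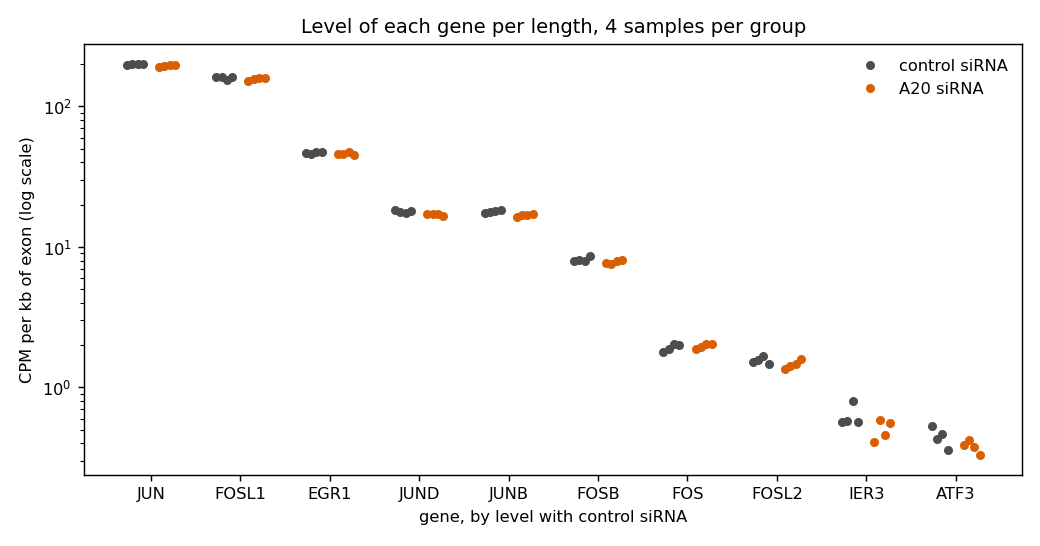
Level of each gene in every sample as CPM per kb of exon on a log axis, with control siRNA in grey and A20 siRNA in orange and 1 point per sample (4 per group). JUN at 199.3 and FOSL1 at 160.2 CPM per kb with control siRNA lead the order, IER3 and ATF3 lie below 1, and the points of both groups lie side by side for every gene.

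Each family was dominated by 1 member. FOSL1 made up 93.2% ± 0.241 of the FOS family's level per length in control samples and 93.3% ± 0.134 after A20 siRNA (SD, n = 4 each), followed by FOSB with 4.74% and 4.63%. FOS, the prototype of the family, contributed 1.12% and 1.17%, and FOSL2 0.906% and 0.864%. The order of FOS and FOSL2 rests on the exonic lengths used, as above. JUN made up 84.8% ± 0.193 of the JUN family with control siRNA and 85.2% ± 0.196 with A20 siRNA. JUNB (7.61% and 7.36%) and JUND (7.62% and 7.43%) made up the rest. The JUN share was 84.5 to 84.9% in the control samples and 85.0 to 85.5% in the A20 siRNA samples, without overlap. JUN itself was not higher after A20 siRNA (log2 fold change -0.03), but JUNB and JUND had lower log2 fold changes (-0.09 and -0.07, below). The share therefore restates the values of these genes, and no background was computed for it. The JUN family summed to 1.37 ± 0.0265 times the FOS family with control siRNA and to 1.36 ± 0.0131 times with A20 siRNA, ranges that overlapped. These shares are sums over the genes themselves and were given no test.

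After A20 siRNA none of the 10 genes passed an adjusted p-value of 0.05 (edgeR), against 1.25% of the tested genes, of which 85 were higher (0.634%) and 82 lower (0.611%). DESeq2 and limma-voom called none of them either, although DESeq2 gave FOS, ATF3 and IER3 no adjusted p-value. The adjusted p-values ran from 0.224 for JUNB to 0.890 for FOS. The differences were small and mostly in one direction. Of the 10 log2 fold changes 9 were below 0, with a median of -0.07, whereas 48.4% of all tested genes were below 0 and their median was 0.00275. The 10 genes also correlated over the same samples (38 of 45 pairs above 0, below), so the 9 cannot be counted as separate observations. At an unadjusted p under 0.05 there were 2 genes, JUNB and JUND, in a background of 16.2% of tested genes. They were also the 2 of 10 genes whose groups did not overlap, which 7.61% of tested genes showed in either direction, 3.71% in the higher and 3.9% in the lower direction. Lower values in 4 of 4 same-numbered pairs were seen for 6 of the 10 genes and for 11.3% of tested genes. The labels do not say whether the numbers pair the samples. The unadjusted count was 0 with DESeq2, 1 with limma-voom and 0 to 3 with a sample left out (0 without control replicate 4 or A20 siRNA replicate 1). It was also 0 with a correction for exonic length (the genes' median length was 3162 bases against 4982 for all tested genes), under which the median of the 10 genes was -0.06. In bulk RNA fewer cells expressing a gene and less RNA per cell cannot be told apart.

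**Figure D2:**
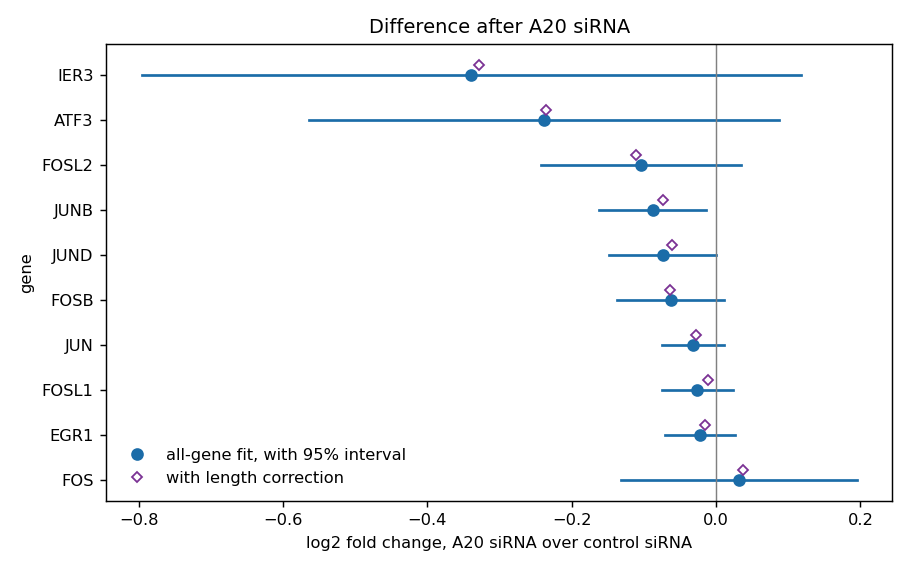
Log2 fold change of each gene, A20 siRNA over control siRNA, with its 95% interval from the fit over all genes (circles and lines, 4 samples against 4), and the value after a correction for exonic length (diamonds). JUNB and JUND have intervals below 0 before adjustment for the number of genes, the 3 most abundant genes have the narrowest intervals, and IER3 and ATF3 the widest.

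The gene positions below are those of GENCODE on GRCh38. FOSL1 (ENSG00000175592.8, chr11:65892049-65900573, minus strand), encoding Fra-1, the FOS family protein most often raised in carcinoma cells, was covered by 6427 to 9873 reads. In replicates 1 to 4 it had 304, 307, 293 and 305 CPM with control siRNA and 288, 297, 301 and 302 CPM with A20 siRNA. The ranges overlapped, since control replicate 3 lay below 3 of the A20 siRNA samples. The log2 fold change was -0.03 (SE 0.02, adjusted p = 0.634, edgeR), and its 95% interval ran from -5.07% to 1.596%. It was -0.04 without control replicate 3, and -0.01 without A20 siRNA replicate 1 or with the length correction. FOSB (ENSG00000125740.13, chr19:45467995-45475179, plus strand), which encodes a full-length and a shorter protein by alternative splicing, had 43.8, 45.1, 44.2 and 47.7 CPM with control siRNA and 42.6, 41.9, 44.1 and 44.6 CPM with A20 siRNA. It was lower in 4 of 4 same-numbered pairs, but the groups overlapped. The log2 fold change of -0.06 (SE 0.04) had an adjusted p-value of 0.397 (edgeR). It was -0.04 without control replicate 4 and -0.08 without control replicate 1. All exonic bases of FOSB lie inside ERCC1, a DNA repair gene on the opposite strand that had 362 CPM with control siRNA. No exonic base is shared, but the strand setting of the counting is not given in the sources used here.

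FOS (ENSG00000170345.9, chr14:75278826-75282230, plus strand) had 139 to 204 reads and 5.69, 6.03, 6.52 and 6.34 CPM with control siRNA against 5.95, 6.19, 6.51 and 6.53 CPM with A20 siRNA. It was the only one of the 10 genes with a log2 fold change above 0 (0.03, SE 0.08, adjusted p = 0.890, edgeR), and without control replicate 1 the sign turned (-0.01). The 95% interval from -8.69% to 14.5% was wider than for FOSL1. FOSL2 (ENSG00000075426.11, chr2:28392448-28417317, plus strand), encoding Fra-2, had 10.8, 11.2, 12.0 and 10.5 CPM with control siRNA and 9.68, 10.1, 10.5 and 11.5 CPM with A20 siRNA, and A20 siRNA replicate 4 lay above 3 of the 4 control samples. Its log2 fold change was -0.10 (SE 0.07, adjusted p = 0.463, edgeR), and -0.07 without control replicate 3 or A20 siRNA replicate 1. It was -0.13 without control replicate 4 and -0.15 without A20 siRNA replicate 4.

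JUN (ENSG00000177606.6, chr1:58776845-58784048, minus strand), the founding member of AP-1, rested on 15273 to 23796 reads per sample. It had 712, 723, 722 and 731 CPM with control siRNA and 694, 702, 712 and 718 CPM with A20 siRNA in replicates 1 to 4. Each A20 siRNA sample was below the control sample of the same number, but the groups overlapped. The log2 fold change of -0.03 (SE 0.02) had an adjusted p-value of 0.468 (edgeR) and a 95% interval from -5.04% to 0.760%. JUNB (ENSG00000171223.5, chr19:12791486-12793315, plus strand), which can act as a weaker partner than JUN on AP-1 sites, had 31.96, 32.4, 32.9 and 33.7 CPM with control siRNA and 30.1, 30.9, 31.1 and 31.2 CPM with A20 siRNA. Every A20 siRNA sample lay below every control sample. The log2 fold change was -0.09 (SE 0.04, adjusted p = 0.224, edgeR, from an unadjusted 0.0231), a change of -5.90% with a 95% interval from -10.6% to -0.922%. JUNB lies inside HOOK2 on the opposite strand and shares 14.2% of its exonic bases with it (HOOK2 had 4.24 CPM with control siRNA).

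JUND (ENSG00000130522.5, chr19:18279694-18281622, minus strand), the family member known for steady expression in resting cells, had 35.6, 34.2, 33.4 and 35.0 CPM with control siRNA and 33.0, 33.0, 33.0 and 32.1 CPM with A20 siRNA. The groups did not overlap, although the lowest control sample (33.4 CPM) was close to the highest A20 siRNA sample (33.0 CPM). The log2 fold change was -0.07 (SE 0.04, adjusted p = 0.306, edgeR, from an unadjusted 0.0485), with a 95% interval from -9.73% to -0.0362%. With the correction for exonic length the unadjusted p-values were 0.0525 for JUNB and 0.0989 for JUND.

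**Figure D3:**
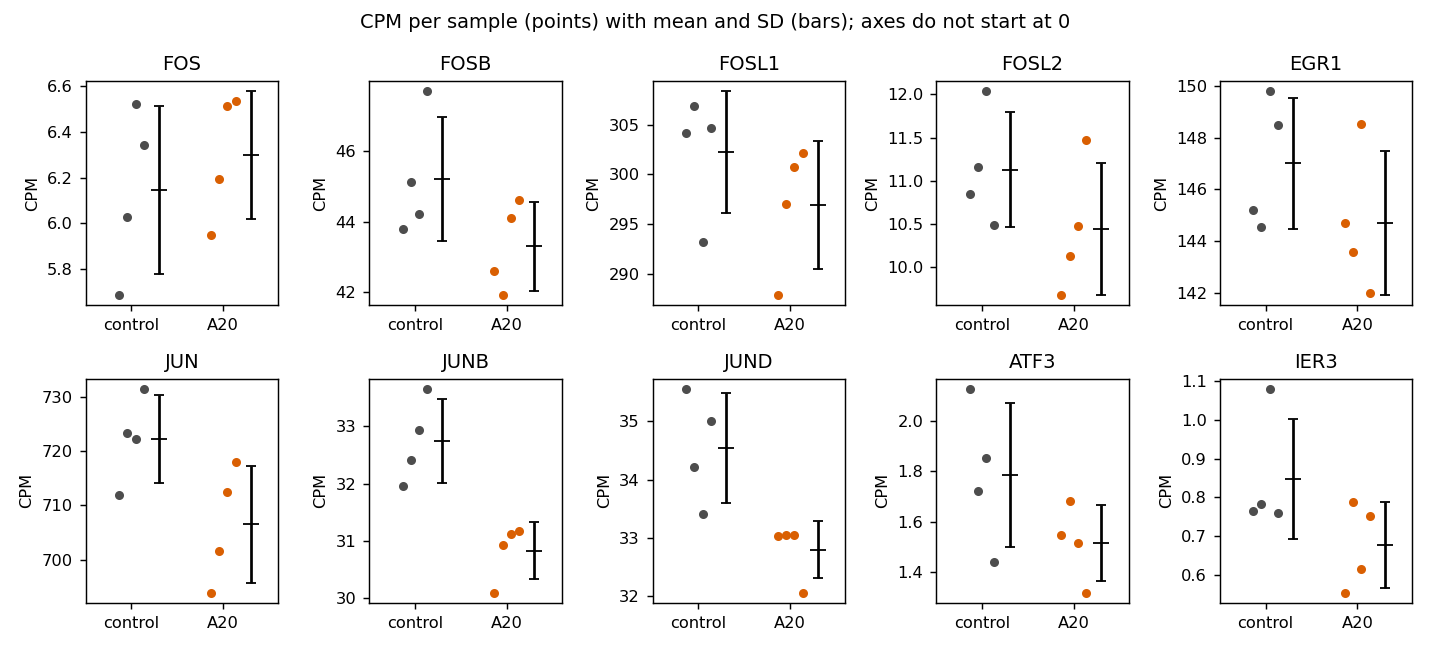
CPM of the 10 genes in every sample (points), with the mean and SD of each group (bars, n = 4), control siRNA in grey and A20 siRNA in orange, on axes that do not start at 0. The points of JUNB and JUND are apart between the groups, and those of the other 8 genes overlap.

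EGR1 (ENSG00000120738.7, chr5:138465479-138469303, plus strand), a zinc finger factor whose CArG boxes are printed above, had 145, 145, 149.8 and 148 CPM with control siRNA and 145, 144, 149 and 142 CPM with A20 siRNA. The groups overlapped, the log2 fold change was -0.02 (SE 0.02, adjusted p = 0.694, edgeR), and the 95% interval ran from -4.80% to 1.83%. Without A20 siRNA replicate 3 the log2 fold change was -0.04. ATF3 (ENSG00000162772.16, chr1:212565334-212620777, plus strand), a stress-induced factor that pairs with JUN proteins, had 28 to 64 reads. Its levels were 2.13, 1.72, 1.85 and 1.44 CPM with control siRNA and 1.55, 1.68, 1.52 and 1.32 CPM with A20 siRNA, lower in 4 of 4 same-numbered pairs and overlapping between the groups. The log2 fold change of -0.24 (SE 0.16) had an adjusted p-value of 0.475 (edgeR). It was -0.14 without control replicate 1 and -0.32 without control replicate 4. IER3 (ENSG00000137331.11, chr6:30743199-30744548, minus strand), an immediate early gene that affects cell survival and is also known as an NFkB target, had 15 to 28 reads, with 0.765, 0.783, 1.08 and 0.761 CPM with control siRNA and 0.554, 0.788, 0.614 and 0.752 CPM with A20 siRNA. Control replicate 3 stood above all other samples. The log2 fold change was -0.34 (SE 0.22, adjusted p = 0.469, edgeR), -0.20 without that sample and -0.43 without A20 siRNA replicate 2. At these counts the intervals of ATF3 (-32.4% to 6.21%) and IER3 (-42.4% to 8.48%) leave room for differences that could not be detected at this depth. IER3 shares 32.6% of its exonic bases with the antisense gene IER3-AS1. Over the 10 genes, 5 had a 95% interval within 10% of the control level on either side, namely FOSB, FOSL1, JUN, JUND and EGR1.

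The rest of the pathway was described with lists chosen by function. Of 25 kinases and transcription factors upstream of FOS and JUN, 23 were tested, 1 was called lower and none higher (0.611% and 0.634% of all tested genes). The list's median log2 fold change was 0.02 (against 0.00275 for all tested genes). The called gene was MAP2K1, which encodes the kinase MEK1 that activates ERK. It had 120.1, 126, 122 and 127 CPM with control siRNA and 115, 115, 115 and 113 CPM with A20 siRNA. The groups did not overlap, as for 7.61% of all tested genes (log2 fold change -0.11, SE 0.02, adjusted p = 0.0337, edgeR). The call was lost without control replicate 2, 3 or 4 or without A20 siRNA replicate 3 or 4 (adjusted p from 0.0774 to 0.126). The other end of the list, MRTFB and BRAF, had log2 fold changes of 0.08 and 0.06 that did not pass. With the correction for exonic length they were 0.04 and 0.0064. With a sample left out MRTFB ran from 0.05 (without control replicate 4) to 0.11 (without control replicate 1). BRAF ran from 0.01 (without control replicate 2) to 0.08 (without control replicate 1), and was 0.04 without A20 siRNA replicate 3. RPS6KA5 had -0.10, which became -0.03 without A20 siRNA replicate 1, -0.15 without A20 siRNA replicate 3 and -0.16 with the length correction. MAPK10 had no read and MAP2K6 at most 1 read in a sample.

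Of 40 further immediate early genes 39 were tested, and 2 were called lower, 1 of which is TNFAIP3 itself, the target of the siRNA. The other was BHLHE40, a basic helix-loop-helix repressor that responds to growth factors and hypoxia. It had 147.6, 164, 153 and 147.7 CPM with control siRNA and 126, 134, 129 and 135 CPM with A20 siRNA, without overlap (log2 fold change -0.23, SE 0.03, adjusted p = 0.00268, edgeR). The list's median log2 fold change was -0.02, with 16 genes above 0 and 23 below. Of all tested genes 0.611% were called lower and 48.4% had a log2 fold change below 0. Among the genes of this list that did not pass, NR4A3 had a log2 fold change of -0.33. It was -0.17 without A20 siRNA replicate 1 and -0.42 without A20 siRNA replicate 3. NR4A2 (0.30) and PLK2 (0.62) were at the upper end, with PLK2 resting on 6 to 19 reads. KLF2, a zinc finger factor singled out after its values were seen, had 22.01 ± 0.564 and 19.0 ± 1.752 CPM (SD, n = 4 each), without overlap (log2 fold change -0.21, SE 0.05, adjusted p = 0.0595, edgeR). It passed without a low-count filter (adjusted p = 0.00327) and without control replicate 1 (0.0450) or A20 siRNA replicate 1 (0.0348). MYC, known as a target of wnt-beta-catenin signaling, had 384 ± 8.16 and 384 ± 8.08 CPM (SD, n = 4 each) and was singled out after its values were seen. The EGR family genes EGR2 and EGR3 had log2 fold changes of 0.04 and -0.06, and EGR4 had no read.

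None of the 11 tested AP-1 dimer partners of 15 and none of the 7 genes for turnover of JUN and FOS proteins was called (edgeR). At an unadjusted p under 0.05 (edgeR) there were 2 of the 11 and 1 of the 7, near the 16.2% of all tested genes. DESeq2 and limma-voom called none of these genes. The small MAF protein gene MAFK had 25.5 ± 1.29 CPM in control samples and 23.6 ± 0.272 CPM after A20 siRNA (SD, n = 4 each), without overlap and at a log2 fold change of -0.11 (SE 0.04, adjusted p = 0.214), and passed only without control replicate 1 (adjusted p = 0.0468). The other gene of the list with an unadjusted p under 0.05 was MAFG, also a small MAF protein gene, singled out after its values were seen. It was in the opposite direction, with 63.8 ± 1.41 CPM in control samples and 66.6 ± 0.899 CPM after A20 siRNA (SD, n = 4 each), without overlap (log2 fold change 0.06, SE 0.03, adjusted p = 0.267, edgeR). ATF1 had a log2 fold change of -0.06 (-0.03 without control replicate 2, -0.09 without control replicate 4). BATF3 had 0.06 (0.03 without control replicate 1, 0.09 without control replicate 3) and ATF7 had 0.11. Among the genes for protein turnover, DET1 had a log2 fold change of 0.05, COP1 of -0.04 and DDB1 of -0.03. With a sample left out they ran from 0.02 to 0.07, from -0.07 to -0.01 and from -0.05 to -0.02, and DDB1 was at -0.07 with the length correction.

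Of 33 AP-1 target genes 24 were tested, and 1 was called higher and none lower (0.634% and 0.611% of all tested genes). The list's median log2 fold change was -0.03, with 18 genes below 0 (48.4% of all tested genes). The called gene was CXCL8, a neutrophil chemokine that NFkB controls together with AP-1. It had 0.399, 0.391, 0.424 and 0.338 CPM with control siRNA and 1.28, 0.788, 0.942 and 1.13 CPM with A20 siRNA, from 8 to 44 reads (log2 fold change 1.41, SE 0.24, adjusted p = 0.0106, edgeR). Without control replicate 4 the adjusted p-value was 0.0507. The matrix gene FN1 had 0.871 ± 0.0744 and 1.29 ± 0.170 CPM (SD, n = 4 each; log2 fold change 0.58, SE 0.18, adjusted p = 0.103), without overlap between the groups. The protease inhibitor gene TIMP1, singled out after its values were seen, had a log2 fold change of -0.10 and an adjusted p-value of 0.0534 in edgeR, 0.0220 in DESeq2 and 0.0448 in limma-voom. It also passed without a low-count filter and without control replicate 1 or A20 siRNA replicate 1 or 2 (adjusted p from 0.00150 to 0.0488). The collagenase MMP1 and the stromelysin MMP3 had log2 fold changes of -0.24 and -0.49 and did not pass. MMP3 rested on 5 to 19 reads, and its value was -0.16 without A20 siRNA replicate 1, -0.23 without control replicate 3 and -1.003 without A20 siRNA replicate 3. MMP2, MMP7, IL6 and GJA1 had no read in any sample.

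**Figure D4:**
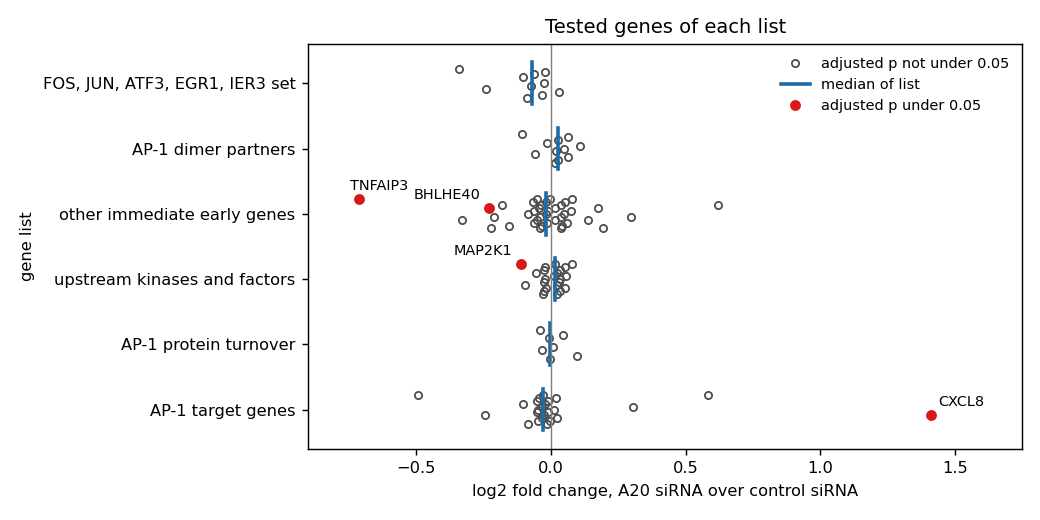
Log2 fold change, A20 siRNA over control siRNA, of the tested genes of each list, with filled red points for an adjusted p under 0.05 (edgeR) and blue bars for the list median. TNFAIP3, BHLHE40, MAP2K1 and CXCL8 are the named points, and none of the genes in the top row is filled.

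Over the 8 samples the log2 CPM of the 10 genes correlated with each other by a median Pearson's r of 0.34 over 45 pairs, from -0.63 between ATF3 and FOS to 0.91 between JUNB and JUN, and 38 pairs were above 0. The genes were measured in the same 8 samples, which differ in group and in total counts, so these values are descriptions. Among all tested genes, the one most like JUNB over the 8 samples was SLC39A1 (r = 0.996, log2 fold change -0.06), and the one most like JUN was PPP2CA (r = 0.965). For JUND it was C6orf62 (r = 0.957), for EGR1 TSKU (r = 0.967), for FOSL1 AK8 (r = 0.959), for FOSL2 PAFAH1B2 (r = 0.980) and for FOSB TNIP1 (r = 0.957). FOS was most like ZNF385A (r = 0.9747), ATF3 most like CNPY2 (r = 0.929) and IER3 most like KBTBD6 (r = 0.971). None of these 10 genes was called in the comparison (edgeR), and C6orf62 had the smallest adjusted p-value of them (0.0729). Each was picked as the highest r among all tested genes over only 8 samples, a choice that favours high values. AK8 was also low, at 0.694 CPM with control siRNA and 0.540 CPM with A20 siRNA. Shared regulation was not tested.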

How the data were processed

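RKO cells were transfected with control or A20 siRNA (4 samples each) and stimulated with wnt3a. The authors captured polyadenylated RNA, sequenced single reads, trimmed them with Trimmomatic and counted reads mapping uniquely to each gene with STAR on GRCh38.p7 and a GENCODE annotation. Tool versions, GENCODE release and strand setting are not given in the sources used here. The deposited values are raw counts per gene, not normalized. Groups and replicate numbers came from the sample titles.

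The main test was that of edgeR 4.0.16, run in R 4.3.3 (filterByExpr, minimum count 10, TMM, quasi-likelihood test, no covariates, Benjamini-Hochberg adjustment over 13412 genes, threshold 0.05). Intervals of 95% used the standard error from the F statistic. Symbols, positions and exonic lengths came from GENCODE release 44, which matched 56948 of 57992 identifiers. Correlations used log2 of CPM with 0.5 added. The alternatives were RLE and upper quartile scaling, no low-count filter, a minimum of 10 counts per sample, DESeq2 1.42.0 without a prior, limma-voom (limma 3.58.1), the replicate number as a block, a loess correction for exonic length (span 0.5, centred on each sample's median), both together, and each sample left out. Replicates of the same group were further apart than counting error allows (chi-square per degree of freedom 1.31 to 3.69). The edgeR fits were tested on simulated data.

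The genes and lists were chosen with earlier results of these data known. Named genes are the 10 genes, TNFAIP3, and in each list every gene that passed and the 2 at each end of the log2 fold changes, plus the gene most like each of the 10. EGR2, EGR3, KLF2, MAFG, MYC and TIMP1 were added after their values were seen. A result that this rule would name is not reported here.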

Additional observations from a re-analysis of the deposited data

Results flagged for a closer look

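A single sample far from the rest of its group was looked for in 84 groups of 4 samples by Dixon's test at the 95% level. It was found in 4, where chance gives 4.2. For JUND with A20 siRNA, replicate 4 lay below the others by 0.989 of the range in that group (32.1 CPM, the others 33.04 to 33.05). Without it the log2 fold change was -0.07, and the unadjusted p-value went from 0.0485 to 0.0962 (edgeR). For IER3, control replicate 3 lay above the rest by 0.931 of the range (1.08 CPM against 0.761 to 0.783), on 15 to 28 reads per sample over both groups, and without it the log2 fold change went from -0.34 to -0.20. TNFAIP3 was lower in A20 siRNA replicate 2 than in the others by 0.847 of the range (3.01 CPM against 3.40 to 3.47). For AK8, the gene most like FOSL1, A20 siRNA replicate 1 lay below the others by 0.906 of the range (0.292 CPM against 0.611 to 0.644).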

How the results depend on the processing

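None of the 10 genes passed an adjusted p-value of 0.05 under the 17 alternatives. Between 9 and 10 of them had a log2 fold change below 0, and the exception was FOS, which ran from -0.0103 without control replicate 1 to 0.0608 without control replicate 3. JUNB ran from -0.10 to -0.07 (adjusted p from 0.111 to 0.451) and JUND from -0.09 to -0.06 (0.290 to 0.539). DESeq2 gave FOS, ATF3, IER3, TNFAIP3 and CXCL8 no adjusted p-value.

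Over all genes, against 85 higher and 82 lower, the counts were 314 and 310 with no filter on low counts, 262 and 212 under the replicate block, 91 and 150 with the length correction, and 218 and 258 with the block and that correction. Leaving out one sample gave 6 to 567 higher and 6 to 430 lower, with the most calls without control replicate 1 and the fewest without A20 siRNA replicate 3. Over the lists, against 1 higher and 3 lower, there were 2 and 6 without a filter, 2 and 5 with the replicate block, 6 lower with the block and length correction, and 0 higher with at least 10 counts in every sample and with DESeq2, because CXCL8 was filtered or had no adjusted p-value. One sample left out gave 0 to 2 higher and 2 to 8 lower. Apart from these, the cause was not tested.

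Deviations of same-numbered samples correlated by -0.00982 to 0.0838. In these deviations control replicates 1 and 2 were most like the A20 siRNA sample of the same number, and control replicates 3 and 4 were not. Over all genes the block raised the calls from 167 to 474. Whether the numbers pair the samples is therefore not settled. The block changed no call among the 10 genes. Under the block KLF2 (adjusted p = 0.0158) and TIMP1 (0.0196) passed. At 15 to 64 reads the depth limits ATF3 and IER3.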
